A study of Mus musculus with 18 samples.

Results

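The 10 genes described here, Hspa5, Dnajb11, Sdf2l1, Hyou1, Hsp90b1, Calr, Pdia4, Pdia6, Creld2 and Manf, encode folding helpers of the endoplasmic reticulum (ER) and were taken as a named list from the 33440 genes that the libraries cover. The list was chosen with earlier results of these data known. All 10 genes passed the filter on low counts in both experiments. RNA of mouse adipocytes (C57BL/6) was sequenced in 18 libraries, and each experiment asked which genes follow the activity of IRF3, a transcription factor of innate immunity, in adipocytes. In the first, stromal vascular fraction (SVF) cells from the inguinal fat of IRF3-2D mice aged 4 to 6 weeks were differentiated into adipocytes, received AAV-GFP (WT, n = 3) or AAV-GFP-Cre (FI3OE, n = 3) on day 6 for 12 h and were harvested on day 8. IRF3-2D is a constitutively active form of mouse IRF3 that is silent until Cre acts, so the WT cells carried the same silent allele, and the effect of Cre and that of active IRF3 cannot be told apart. In the second, adipocyte RNA bound to ribosomes was pulled down with an anti-GFP antibody (TRAP) from epididymal fat (eWAT) of Ad-NuTRAP mice (WT, n = 6) and of Ad-NuTRAP mice lacking Irf3 in adipocytes (FI3KO, n = 6). Both groups were fed a high-fat diet (HFD) for 8 weeks at thermoneutrality. The labels give no age for them, and the methods describe young adult male mice at the start of a longer feeding than the labels state. Adipoq-Cre drives both the tagged ribosome and the deletion.

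Proteins that enter the secretory pathway are folded in the ER lumen, where BiP, the product of Hspa5, binds unfolded chains in cycles set by ATP. The J-domain protein encoded by Dnajb11 and its binding partner encoded by Sdf2l1 assist it, while the Hsp90 protein GRP94, the lectin chaperone calreticulin and the protein disulfide isomerases act beside it. When unfolded proteins build up, the sensors IRE1, PERK and ATF6 start the unfolded protein response (UPR), in which ATF6 and spliced XBP1 raise these genes through ER stress response elements in their promoters. Adipocytes secrete adiponectin and many other proteins and therefore depend on this machinery.

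The promoters are shown first because several members share one element. In 300 bases around the RefSeq start (GRCm38.p6, 250 before and 50 after), 8 of the 10 genes could be read, while Manf and Hyou1 were not in the table. The ER stress response element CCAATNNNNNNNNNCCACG was searched on both strands and was found in 5 of these 8 genes and in 37 of 27025 genes in all (0.137%). Hsp90b1 held it at 2 places. The shorter element ERSE-II, ATTGGNCCACG, was found in Dnajb11 and in 12 genes in all (0.0444%). Sdf2l1 and Pdia4 held neither sequence. The repeat GAAANNGAAA, a core that IRF proteins are known to bind, was found in none of the 8 and in 3.99% of all genes. The windows below read 5′ to 3′ on the strand on which the element is spelled as above, with its fixed bases in capitals. A match is a description of the sequence only.
Hspa5, chr2:34772020-34772048, plus strand, element 47 to 65 bases before the start: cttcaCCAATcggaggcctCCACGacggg
Calr, chr8:84847070-84847098, plus strand (gene on the minus strand), 144 to 162 bases before the start: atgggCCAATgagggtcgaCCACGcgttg
Hsp90b1, distal, chr10:86705633-86705661, minus strand, 194 to 212 bases before the start: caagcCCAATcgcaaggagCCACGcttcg
Hsp90b1, proximal, chr10:86705528-86705556, plus strand (gene on the minus strand), 89 to 107 bases before the start: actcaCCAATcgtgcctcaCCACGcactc
Pdia6, chr12:17266486-17266514, plus strand, 80 to 98 bases before the start: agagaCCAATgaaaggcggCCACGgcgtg
Creld2, chr15:88819515-88819543, minus strand (gene on the plus strand), 108 to 126 bases before the start: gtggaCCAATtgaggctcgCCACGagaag
Dnajb11, ERSE-II, chr16:22857852-22857862, plus strand, in the first transcribed bases, starting 7 bases after the start: ATTGGcCCACG

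SVF libraries held 21541334 to 36932452 reads and TRAP libraries 25259869 to 40490283. Irf3 was higher in the FI3OE libraries (90.8, 92.1 and 100 CPM, reads scaled to a common library total) than in WT (56.8, 56.9 and 58.6 CPM), and in the TRAP libraries it ranged from 12.4 to 18.8 CPM in FI3KO and from 17.2 to 23.2 CPM in WT (log2 fold change -0.35, adjusted p = 0.0198 in edgeR). Per transcript length Irf3 read the other way in TRAP, with a mean of 69.7 TPM (Salmon's estimate scaled by length and library) in FI3KO and 44.4 TPM in WT, so this check of the labels rests on the reads alone. All 10 interferon target genes listed were higher in FI3OE (median log2 fold change 1.92), and none of 9 tested passed in FI3KO with edgeR, with DESeq2 or at an unadjusted p below 0.05 (0 genes). Ifit1, a listed target, was low in TRAP, with means of 2.01 CPM in WT and 1.75 CPM in FI3KO against 224 CPM in WT SVF-derived adipocytes. A fall from such a level would be hard to read. The 18 adipocyte markers summed to 15840 to 18140 CPM in SVF libraries and to 55800 to 71460 CPM in TRAP libraries. TRAP replicates 1 and 2 were taken as a set apart from 3 to 6, a division that comes from earlier analysis of these data and not from the labels. WT TRAP replicates 1 and 2 were also the pair closest to each other, with a mean chi-square of 2.54 per gene against 8.41 to 130 for the other pairs of WT TRAP libraries. They differed by more than sampling noise, for which 1 would be expected, and were kept as separate samples. Pairs within an SVF group lay at 3.85 to 7.73. The labels do not say whether WT replicates 1 and 2 came from separate animals, so n = 6 may overstate the independent samples. By the same measure the sets overlapped in WT TRAP, with 126 for replicates 3 and 5 and 99.8 for replicates 1 and 3.

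In FI3OE adipocytes all 10 chaperone genes fell. Expression in FI3OE was between 22.8% of WT (Sdf2l1) and 58.2% (Calr), and in each gene all 3 FI3OE libraries lay below all 3 WT libraries. Of 16105 genes tested, 16.8% were lower at an adjusted p of 0.05 or less, and 25.7% had FI3OE libraries that all lay below WT. The median log2 fold change was -1.40 for the 10 genes and -0.005 for all genes tested. A log2 fold change of -1 or below with an adjusted p of 0.05 or less was reached by 8 of the 10. Of all genes tested 1.63% met both limits. Because the 10 genes were chosen with earlier results of these data known, the shares over all genes give scale only. Together the 10 genes took 0.704% to 0.759% of all reads in WT libraries and 0.258% to 0.321% in FI3OE libraries. Bulk RNA cannot tell fewer cells of one kind from less RNA per cell. Below, an adjusted p is the p-value of edgeR's quasi-likelihood test after Benjamini-Hochberg adjustment over every gene tested in that experiment. The labels call the samples biological replicates without saying whether they came from separate cultures or animals, so the tests measure the spread between these samples.

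**Figure D1:**
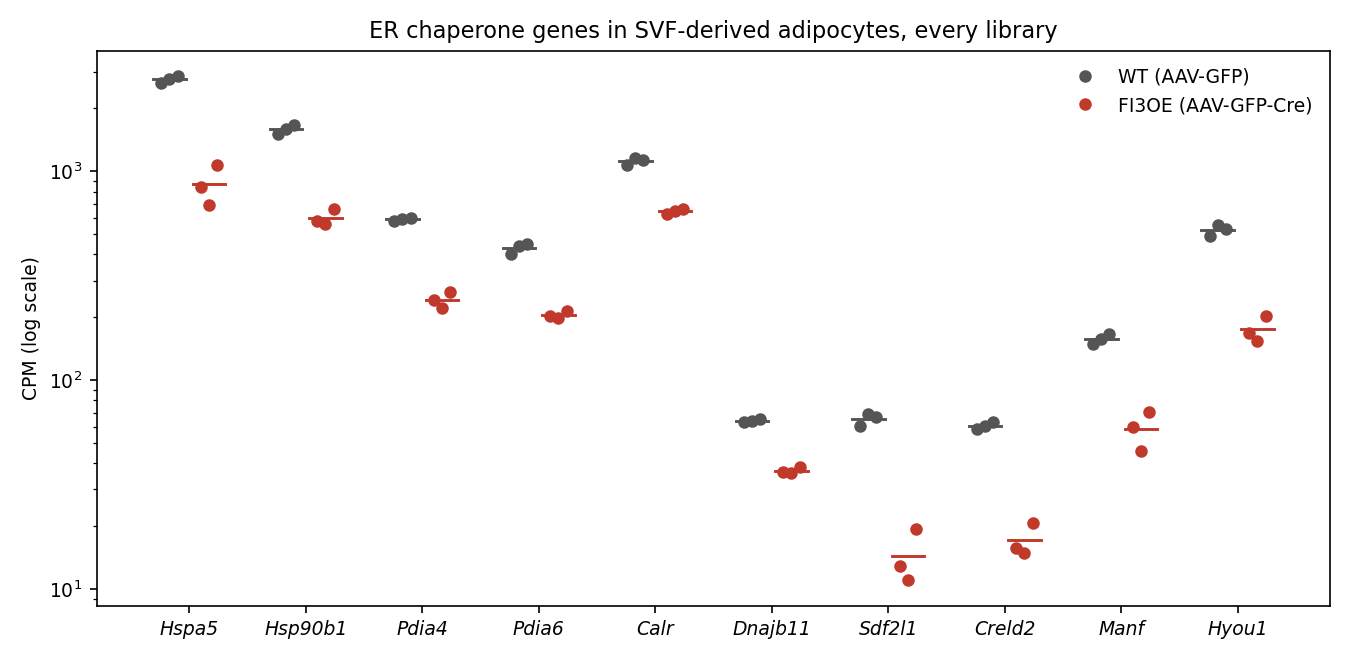
CPM of each chaperone gene (log scale) in the 3 WT (grey) and 3 FI3OE (red) libraries of SVF-derived adipocytes, with bars at the group means. For every gene the red points lie below the grey ones.

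Hspa5 encodes BiP, the Hsp70 chaperone of the ER and the most abundant of the 10 in WT cells. It measured 2657, 2752 and 2860 CPM in WT libraries and 842, 693 and 1067 CPM in FI3OE libraries. The highest FI3OE library was thus far below the lowest WT library, while the FI3OE libraries spread more widely among themselves. The log2 fold change was -1.65 (SE 0.115, adjusted p = 6.94e-07).

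The partners of BiP fell to unequal degrees. Sdf2l1, which encodes a component of BiP complexes, measured 60.3, 69.0 and 66.7 CPM in WT and 12.9, 11 and 19.4 CPM in FI3OE. This was the largest fall of the 10, with a log2 fold change of -2.13 (SE 0.149, adjusted p = 7.18e-07). Dnajb11, the J-domain cochaperone ERdj3, measured 63.0, 63.8 and 65.5 CPM in WT and 36.3, 35.9 and 38.2 CPM in FI3OE. Libraries within each group were nearly level here, and the log2 fold change was -0.78 (SE 0.044, adjusted p = 1.17e-07). Hyou1 encodes the large Hsp70 relative that exchanges nucleotide on BiP. It measured 492, 553 and 531 CPM in WT and 168, 154 and 203 CPM in FI3OE, without overlap. Its log2 fold change was -1.57 (SE 0.085, adjusted p = 8.69e-08).

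GRP94, the Hsp90 of the ER, is encoded by Hsp90b1, which measured 1507, 1601 and 1658 CPM in WT and 581, 557 and 656 CPM in FI3OE. The groups were well separated, with a log2 fold change of -1.39 (SE 0.059, adjusted p = 1.36e-08). Calr encodes calreticulin, a calcium-binding chaperone for glycoproteins. It measured 1068, 1160 and 1133 CPM in WT and 625, 648 and 658 CPM in FI3OE. With Dnajb11 it showed the smallest fall, at a log2 fold change of -0.78 (SE 0.042, adjusted p = 7.52e-08).

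Both disulfide isomerases, which form and rearrange the disulfide bonds of client proteins, were lower. Pdia4 (ERp72) measured 579, 594 and 598 CPM in WT and 243, 222 and 264 CPM in FI3OE. Its log2 fold change was -1.26 (SE 0.054, adjusted p = 1.44e-08). Pdia6 (P5) measured 403, 439 and 449 CPM in WT and 204, 198 and 215 CPM in FI3OE. The fall of Pdia6 was the smaller one, with a log2 fold change of -1.05 (SE 0.050, adjusted p = 3.33e-08).

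Creld2 and Manf encode small ER proteins that are induced by ER stress and can be secreted. Creld2 measured 58.5, 60.2 and 63.1 CPM in WT and 15.8, 14.9 and 20.7 CPM in FI3OE, a log2 fold change of -1.79 (SE 0.097, adjusted p = 8.76e-08). Manf measured 149, 158 and 166 CPM in WT and 59.4, 45.7 and 70.8 CPM in FI3OE, a log2 fold change of -1.41 (SE 0.114, adjusted p = 2.49e-06). Neither gene overlapped between the groups.

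FI3OE libraries kept a common order across the genes. Replicate 3 was the highest FI3OE library for all 10 genes, and replicate 2 was the lowest for 9. Summed over the genes, replicate 2 held 2579 CPM, replicate 1 held 2788 CPM and replicate 3 held 3212 CPM. Irf3 itself read 100, 92.1 and 90.8 CPM in the same order of libraries. Replicates 1 and 3 were thus nearly level for Irf3, and a relation to the chaperone genes was not tested. Among WT libraries replicate 1 was the lowest for all 10.

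The fall was also read in single transcript models. Of 44 transcripts annotated for the 10 genes, 28 had a mean of at least 10 TPM in WT SVF-derived adipocytes, and in 27 of these all FI3OE libraries lay below all WT libraries. The exception was Hyou1-202, a short model with 10.1 ± 4.59 TPM in WT and 3.66 ± 4.31 TPM in FI3OE (SD, n = 3). In Creld2, Sdf2l1, Pdia4 and Dnajb11 a single model reached that level and held 97.0% to 100.0% of the gene's TPM, so the fall of these genes is that of 1 model. Hspa5-202, the main coding transcript of Hspa5, measured 2011 ± 80.5 TPM in WT and 618 ± 145 TPM in FI3OE. Of the 28 transcripts, 10 were annotated as other than protein coding. The largest was Calr-204, a retained-intron model of Calr, at 623 ± 60.0 TPM in WT and 362 ± 41.4 TPM in FI3OE. It took 45.7% of the Calr signal in WT and 47.3% in FI3OE. Salmon divides shared reads between overlapping models, so the share of a single model is less certain than the gene sum.

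Other genes of the ER were examined by lists, which were also chosen with earlier results of these data known. Of 30 other ER folding genes, 14 were lower, 5 were higher and 11 did not pass, with a median log2 fold change of -0.17. The lower ones with the smallest p were Uggt1, the folding sensor for glycoproteins (log2 fold change -0.66), Dnajc3, which encodes the BiP cochaperone P58IPK (-1.18), Pdia3, the isomerase partner of calreticulin (-0.66), and Ero1l, the oxidase that recharges the isomerases (-1.51). Over all genes tested, 16.8% were lower and 20.2% were higher at the same threshold. Of 19 genes of ER-associated degradation (ERAD), which removes misfolded proteins, 11 were lower and 4 higher. Derl3, a membrane protein of that pathway, fell from 6.84 ± 0.696 CPM to 0.843 ± 0.332 CPM (SD, n = 3), a log2 fold change of -2.95 (adjusted p = 1.39e-06). Herpud1 and Sel1l, which organise the ERAD ligase, fell by 1.57 and 0.97 on the log2 scale.

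UPR sensors and factors were lower in 13 of 18 genes, with 1 higher, beside 16.8% lower and 20.2% higher over all genes tested. Trib3, a target of the PERK branch, had the lowest p (log2 fold change -1.95, adjusted p = 1.56e-08), and Atf6 (-0.60), Ddit3 (-0.93) and Eif2ak3, which encodes PERK (-0.64), came next in order of p. Xbp1 fell only slightly, from 183 ± 3.53 to 165 ± 5.70 CPM (log2 fold change -0.13, SE 0.040, adjusted p = 0.0222). In the list of ER translocation and glycosylation, 15 of 22 genes were lower and 1 was higher, among them Sec61a1 (log2 fold change -0.52), which forms the translocation channel.

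Chaperones outside the ER were divided by compartment, and over all genes tested 20.2% were higher and 16.8% lower. Of 18 cytosolic chaperones 13 were higher in edgeR's test and none was lower (0 also at an unadjusted p below 0.05 and with DESeq2), with a median log2 fold change of 0.17. The count higher was 12 with DESeq2's size factors and 11 with library size alone. Hspb1 and Hspa1b, both heat shock proteins, rose by log2 fold changes of 0.73 and 0.72. Of 10 mitochondrial chaperones 5 were lower and 1 was higher. Hspa9, the mitochondrial Hsp70, fell by 0.49 and the protease gene Lonp1 fell by 0.65 on the log2 scale.

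**Figure D2:**
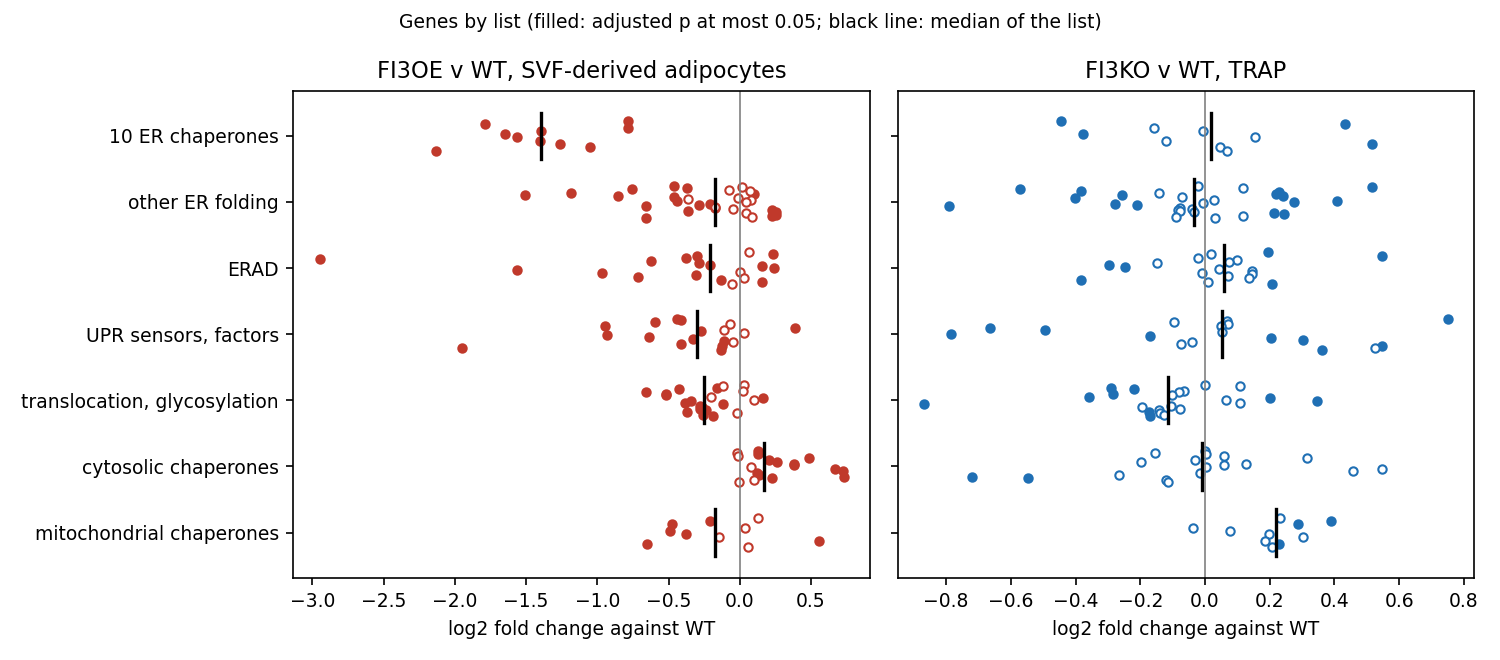
Log2 fold change against WT of each gene in 7 lists, for FI3OE SVF-derived adipocytes (left) and FI3KO TRAP (right). Filled points passed an adjusted p of 0.05 and black lines are medians; the 10 ER chaperones have a median of -1.40 on the left and 0.02 on the right, where the horizontal scale is narrower.

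Of 32 other genes with the longer element in their promoter, 14 were tested in SVF-derived adipocytes. Of these 9 were lower and 1 was higher, with a median log2 fold change of -0.25, against 16.8% lower over all genes tested. The lower ones included 4 that the ER lists already count, namely Derl3, Dnajc3, Canx, which encodes calnexin (log2 fold change -0.46), and Syvn1, the ERAD ubiquitin ligase (-0.71). The 10 on no ER list held the other 5, with log2 fold changes from -0.64 (Alg12) to -0.24 (Hnrnpa3), and the 1 that was higher, Spats2l (0.58). In TRAP 14 were tested, of which 2 were higher and 2 were lower, against 19.1% higher and 18.3% lower over all genes tested there. Sdf2l1 and Pdia4, in which neither element was found, fell as well.

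Markers of other states moved with the same groups, beside 16.8% lower and 20.2% higher over all genes tested. Of 18 adipocyte markers 10 were lower and 4 higher in FI3OE, where their sum ranged from 15840 to 16160 CPM against 17870 to 18140 CPM in WT. Adrb3, the beta-adrenergic receptor of adipocytes, fell from 217 ± 3.06 to 128 ± 1.59 CPM and Car3, a carbonic anhydrase, fell from 2498 ± 63.5 to 1356 ± 107 CPM, while Adipoq, which encodes adiponectin, rose from 771 ± 20.2 to 1015 ± 17.5 CPM (SD, n = 3). Of 18 macrophage markers 5 were higher and 4 lower, and their sum ranged from 2398 to 2420 CPM in FI3OE and from 2446 to 2618 CPM in WT. The cultures also held RNA of preadipocyte and fibroblast markers, 14180 to 14580 CPM in WT and 14390 to 14490 CPM in FI3OE. Of these 12 genes 3 were higher and 3 lower, and Ly6a rose from 390 ± 12.8 to 1374 ± 69.9 CPM (SD, n = 3). The 12 plasma and B cell markers summed to 65.1 to 73.6 CPM in WT and 88.7 to 92.1 CPM in FI3OE. Nearly all of this was Sdc1, the only one tested, which rose from 68.1 ± 4.53 to 89.8 ± 1.73 CPM (SD, n = 3, edgeR adjusted p = 4.33e-05), while Mzb1, Igkc, Igha and Pou2af1 were at 0 in all SVF libraries. The part of these cells in the fall of the chaperone genes was not tested.

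In ribosome-bound RNA of FI3KO adipocytes the 10 genes did not move together. Hspa5 and Calr were lower, Pdia4 and Creld2 were higher, and the other 6 did not pass. Of 13624 genes tested 18.3% were lower and 19.1% were higher at the same threshold. The median log2 fold change was 0.02 for the 10 genes and 0.016 for all genes. Together the genes took 0.141% to 0.162% of reads in WT and 0.127% to 0.148% in FI3KO. None of the 10 reached a log2 fold change of 1 in either direction, and groups without overlap were found for Hspa5 alone and for 15.2% of all genes tested.

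**Figure D3:**
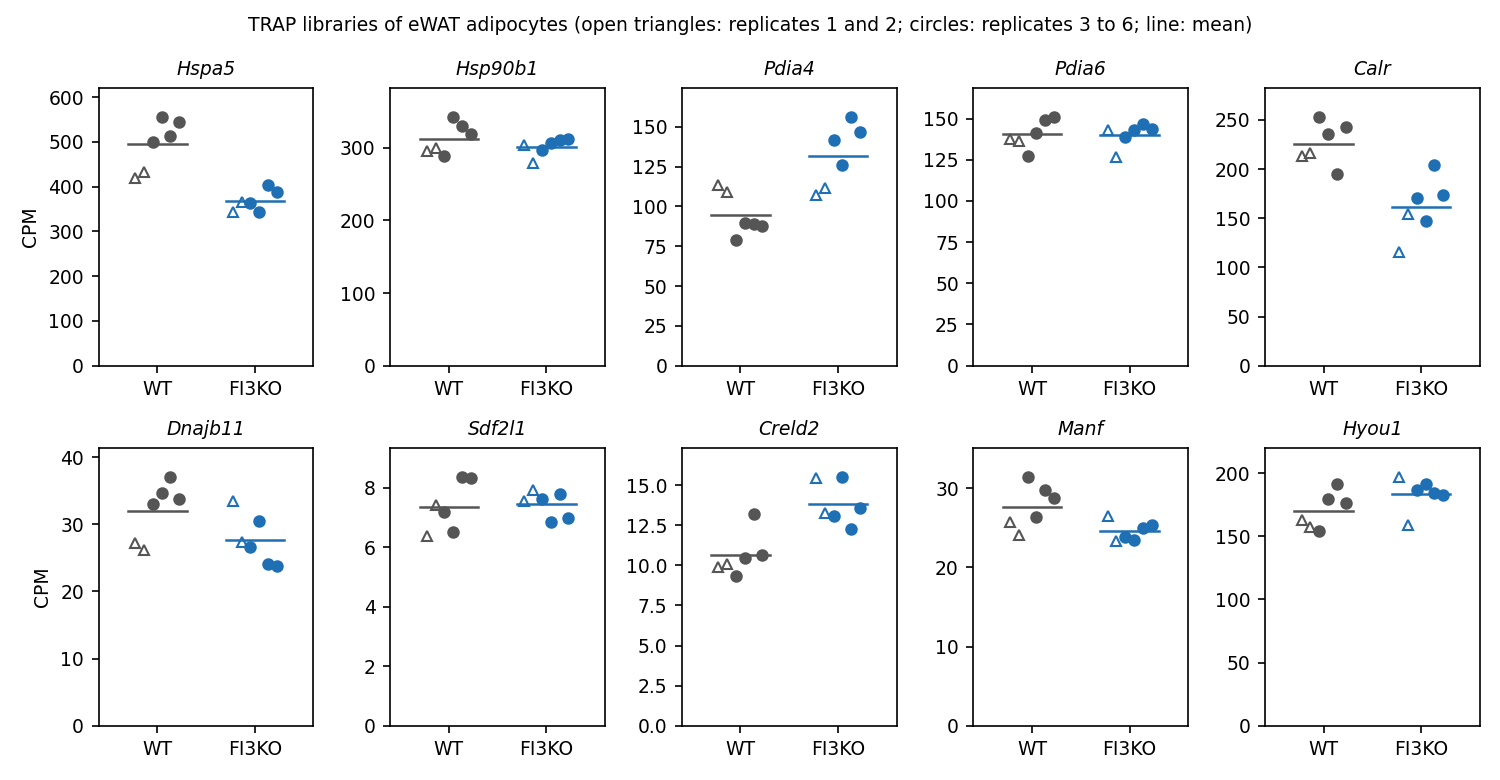
CPM of each chaperone gene in the 6 WT (grey) and 6 FI3KO (blue) TRAP libraries, with lines at the group means, open triangles for replicates 1 and 2 and circles for replicates 3 to 6. Hspa5 is separated between the groups, and for Pdia4 the circles of the groups lie apart while the triangles lie close together.

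Hspa5 ranged from 420 to 555 CPM in WT (median 507) and from 344 to 404 CPM in FI3KO (median 365). All 6 FI3KO libraries lay below all 6 WT libraries, and the log2 fold change was -0.38 (SE 0.073, adjusted p = 0.00202). Calr ranged from 195 to 253 CPM in WT (median 226) and from 116 to 204 CPM in FI3KO (median 163). In 5 of 6 FI3KO libraries Calr was below every WT library, with a log2 fold change of -0.44 (SE 0.105, adjusted p = 0.0059).

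Pdia4 went the other way, from 78.7 to 114 CPM in WT (median 89.3) and from 107 to 156 CPM in FI3KO (median 134). In 4 of 6 FI3KO libraries it was above every WT library (log2 fold change 0.52, SE 0.114, adjusted p = 0.00397). Creld2 ranged from 9.37 to 13.2 CPM in WT (median 10.3) and from 12.3 to 15.5 CPM in FI3KO (median 13.4). Here too 4 of 6 FI3KO libraries were above every WT library (log2 fold change 0.43, SE 0.096, adjusted p = 0.00431).

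Hsp90b1, at 289 to 342 CPM in WT (median 310) and 279 to 312 CPM in FI3KO (median 305), differed by a fitted log2 fold change of -0.005 (SE 0.057, adjusted p = 0.953). Pdia6 ranged from 127.3 to 151 CPM in WT and from 126.7 to 147 CPM in FI3KO (log2 fold change 0.05, SE 0.056, adjusted p = 0.554). Of the FI3KO libraries 1 lay just below every WT library. Among the partners of BiP, Dnajb11 ranged from 26.1 to 37.0 CPM in WT and from 23.7 to 33.5 CPM in FI3KO (log2 fold change -0.16, SE 0.107, adjusted p = 0.259). Sdf2l1, the gene with the largest fall in FI3OE, stood at 6.37 to 8.36 CPM in WT and 6.87 to 7.92 CPM in FI3KO (log2 fold change 0.07, SE 0.089, adjusted p = 0.58). Hyou1 ranged from 154 to 191 CPM in WT and from 159 to 197 CPM in FI3KO (log2 fold change 0.16, SE 0.069, adjusted p = 0.0917). Manf ranged from 24.1 to 31.4 CPM in WT and from 23.4 to 26.5 CPM in FI3KO (log2 fold change -0.12, SE 0.066, adjusted p = 0.168). These 6 genes did not differ beyond the spread between libraries at this threshold.

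**Figure D4:**
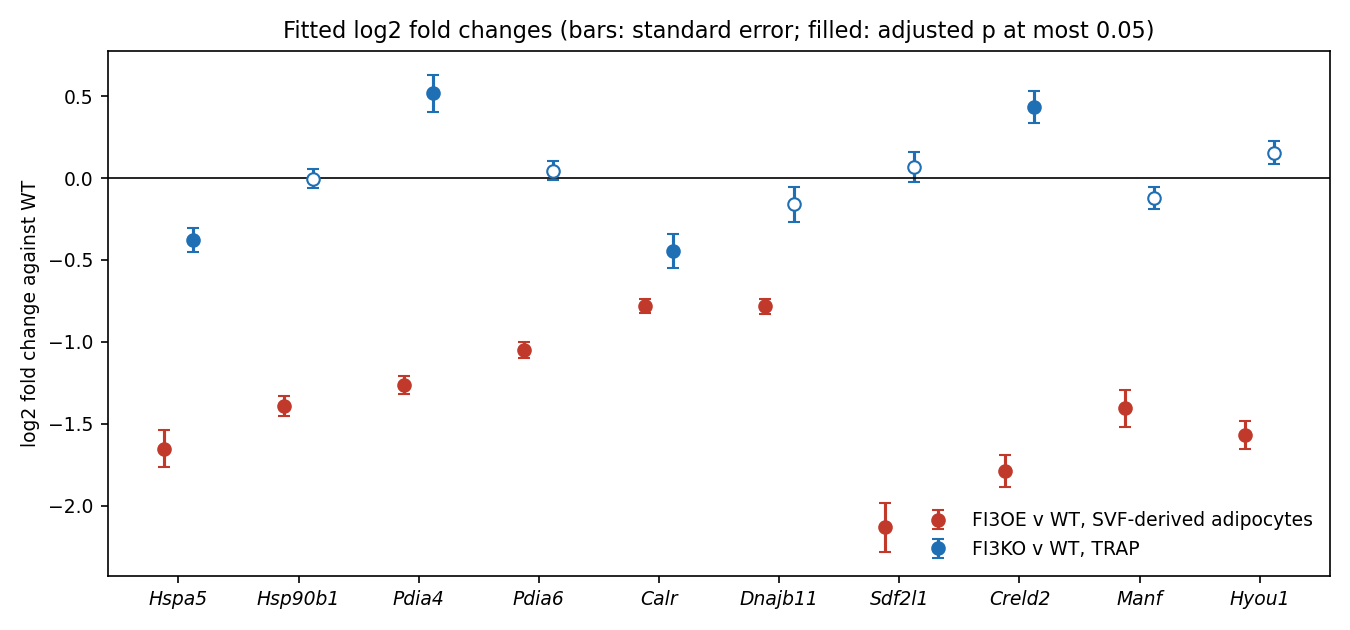
Fitted log2 fold change against WT of each gene in FI3OE SVF-derived adipocytes (red) and FI3KO TRAP (blue), with standard errors; filled points passed an adjusted p of 0.05. All red points lie between -2.13 and -0.78, and the blue points lie between -0.44 and 0.52.

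Set side by side, the same gene could fall in both experiments or differ in direction. Hspa5 and Calr were lower in FI3OE and also lower in FI3KO. Pdia4 and Creld2 were lower in FI3OE (log2 fold changes -1.26 and -1.79) and higher in FI3KO (0.52 and 0.43), although the rise of Pdia4 in FI3KO was read in TRAP replicates 3 to 6 (0.77) and not in the other two (0.04). The experiments share no library, and they differ in depot, diet and RNA source as well as in the direction of the IRF3 change, so the difference between their effects was not tested.

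The knockout effect was also compared between the replicate sets of the TRAP libraries. With replicates 3 to 6 only (n = 4 per group), 6 of the 10 genes passed, and so did 50.6% of all genes tested. Dnajb11 (log2 fold change -0.36, adjusted p = 0.0051) and Manf (-0.20, adjusted p = 0.0244) then joined the other 4. With replicates 1 and 2 only (n = 2 per group) none of the 10 passed in edgeR, as against 3.56% of all genes, while 1 was higher and 2 were lower at an unadjusted p below 0.05. The fitted changes of Calr (log2 fold change -0.61, adjusted p = 0.057) and Creld2 (0.58, adjusted p = 0.071) were larger there than in replicates 3 to 6 (-0.37 and 0.36), with no call for the difference between the sets. That difference was tested as an interaction term, which passed for 2 of the 10 genes and for 26.5% of all genes tested. The sets were drawn from these same data, so the adjusted p of the interaction describes that division and is no independent test.

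Those 2 genes were Pdia4 and Dnajb11. Pdia4 was 86.2 ± 5.10 CPM in WT and 143 ± 12.4 CPM in FI3KO in replicates 3 to 6 (SD, n = 4), but 111 ± 3.40 and 109 ± 2.89 CPM in replicates 1 and 2 (SD, n = 2). Its log2 fold change was 0.77 in the first set and 0.04 in the second, a difference of 0.74 (SE 0.127, adjusted p = 0.00139). Dnajb11 was 34.6 ± 1.73 CPM in WT and 26.2 ± 3.11 CPM in FI3KO in replicates 3 to 6, and 26.7 ± 0.747 and 30.5 ± 4.30 CPM in replicates 1 and 2. Its log2 fold changes of -0.36 and 0.26 differed by -0.61 (SE 0.158, adjusted p = 0.0151). The call for Dnajb11 was lost without FI3KO replicate 1, WT replicate 1 or WT replicate 2, at differences of -0.42, -0.63 and -0.57. Each of these fits leaves 1 library in that group of the second set, which is then assumed to vary like the other groups. For Hspa5 the log2 fold changes were -0.45 and -0.20, with no call for the difference (-0.25, SE 0.114, adjusted p = 0.132).

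The wider lists were likewise mixed in FI3KO, where 19.1% of all genes tested were higher and 18.3% were lower. Of 29 other ER folding genes tested 8 were higher and 7 lower, and of 18 ERAD genes 3 were higher and 3 lower. Dnajb9, the J-domain cochaperone ERdj4, fell from 40.9 ± 7.42 to 26.6 ± 1.61 CPM (SD, n = 6), with all FI3KO libraries below all WT libraries (log2 fold change -0.57, adjusted p = 0.00102). Cnpy2 was higher (log2 fold change 0.52), as was Derl1, an ERAD membrane protein (0.55), while P4hb, the founding disulfide isomerase, was lower (-0.28). Among 17 UPR sensors and factors 5 were higher and 4 lower. Xbp1 was higher in all 6 FI3KO libraries than in any WT library, at 134 ± 17.3 against 108 ± 5.65 CPM (log2 fold change 0.36, adjusted p = 0.00411). Creb3, a membrane-bound factor related to ATF6, was lower (log2 fold change -0.66). Of 22 translocation and glycosylation genes 7 were lower and 2 higher. Cytosolic chaperones were lower in 2 of 18 genes by edgeR and in 4 by DESeq2 (5 at an unadjusted p below 0.05), and higher in none by either (2 at an unadjusted p below 0.05), while mitochondrial chaperones were higher in 3 of 10.

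Cell type markers differed between the TRAP groups, beside 18.3% lower and 19.1% higher over all genes tested. Of 15 macrophage markers tested 12 were lower in FI3KO and 1 was higher, and the summed level of the 18 listed ranged from 19.2 to 54.4 CPM in FI3KO and from 45.2 to 117 CPM in WT. The 12 preadipocyte and fibroblast markers summed to 557 to 1048 CPM in FI3KO and to 988 to 2231 CPM in WT, and of 10 tested 3 were lower and 1 was higher. Col1a1, the largest part of the sum in WT, fell from 1005 ± 421 to 271 ± 157 CPM, while Dcn rose from 27.3 ± 11.2 to 68.5 ± 15.0 CPM (SD, n = 6). Col3a1, the largest part in FI3KO, did not pass, at 552 ± 122 CPM in WT and 473 ± 116 CPM in FI3KO. The 12 plasma and B cell markers, whose cells are rich in ER chaperones, summed to 329 to 614 CPM in FI3KO and to 546 to 880 CPM in WT. Nearly all of this was Ighm, whose mean was 493 ± 107 CPM in the knockout libraries and 691 ± 134 CPM in WT libraries (SD, n = 6), and of 4 markers tested Ighm and Sdc1 were lower. Sdc1 fell from 15.5 ± 0.524 to 8.82 ± 2.45 CPM (SD, n = 6, edgeR adjusted p = 0.00324), with all FI3KO libraries below all WT libraries. Igha and Igkc, at 0.343 and 0.290 CPM in FI3KO and 0.866 and 0.343 CPM in WT, did not pass, and Mzb1 was at 0 in all WT libraries. The 10 endothelial markers summed to 39.4 to 159.9 CPM in FI3KO and to 38.5 to 70.1 CPM in WT. Of 9 tested 1 was higher, Cldn5 (log2 fold change 1.185, edgeR adjusted p = 0.0147), and 0 were lower. Of 18 adipocyte markers 8 were higher and 1, Lep, was lower in edgeR's test. With DESeq2 10 were higher and 3 lower, and with library size alone 6 were higher and 3 lower. The part of these cells in the changes of Hspa5, Calr, Pdia4 and Creld2 was not tested.

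Levels of the 10 genes in WT cells were compared per transcript length, in TPM, as a description. In WT SVF-derived adipocytes Hspa5 stood highest at 2414 ± 55.3 TPM (SD, n = 3), rank 29 among all genes. Calr (1360 ± 86.2 TPM) and Hsp90b1 (1206 ± 73.9 TPM) came next, without overlap with their neighbours. The place of Calr rests on its retained-intron model, since by the main coding transcripts Calr-201 (701 ± 30.9 TPM) stood below Hsp90b1-201 (920 ± 46.6 TPM). Pdia4 (468 TPM), Manf (454 TPM) and Pdia6 (435 TPM) followed, with Manf overlapping both of the others. Hyou1 (328 TPM), Sdf2l1 (179 TPM), Creld2 (102 TPM) and Dnajb11 (76.1 TPM) were each clear of the next.

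In WT TRAP libraries Hspa5 was again highest, at 487 ± 54.8 TPM (SD, n = 6, rank 274). Calr (288 TPM) and Hsp90b1 (229 TPM) overlapped, as did Pdia6 (143 TPM) with Hyou1 (121 TPM) and Hyou1 with Manf (89.4 TPM). Manf overlapped with Pdia4 (83.7 TPM). Dnajb11 stood alone at 40.5 TPM, and Sdf2l1 (21.7 TPM) overlapped with Creld2 (19.0 TPM). Spearman's rho between the orders of the 10 genes in the WT groups was 0.855 (across genes, which are not independent). Mean TPM was higher in WT SVF-derived adipocytes for each gene, by ratios from 1.88 (Dnajb11) to 8.27 (Sdf2l1). The groups differ in depot, culture, diet and RNA source at once, so no test was made.

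**Figure D5:**
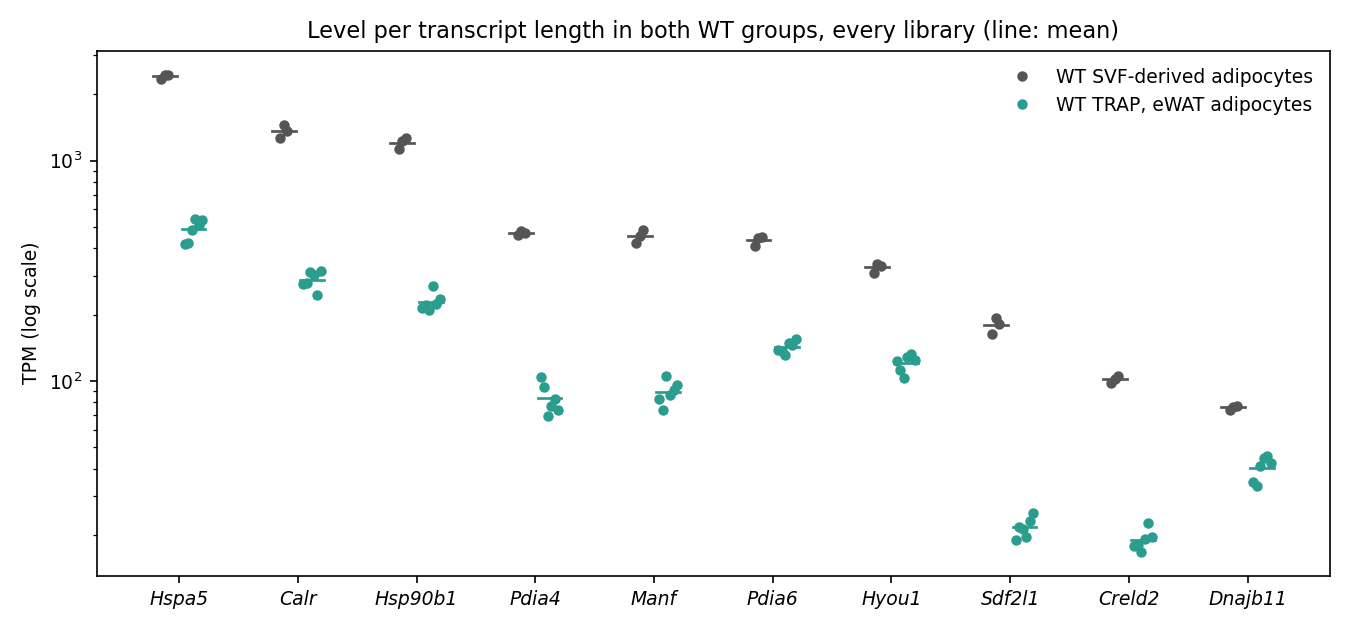
Level per transcript length (TPM, log scale) of each gene in the 3 WT libraries of SVF-derived adipocytes (grey) and the 6 WT TRAP libraries (green), with bars at the means. Genes are ordered by their mean in SVF-derived adipocytes, from Hspa5 at 2414 TPM to Dnajb11 at 76.1 TPM.

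In FI3OE the order was close to that of WT SVF-derived adipocytes (Spearman's rho 0.915 over the 10 genes), with a few exchanges. Calr (764 ± 46.8 TPM) and Hspa5 (744 ± 174 TPM) overlapped at the top, and Dnajb11 (42.3 TPM) stood above Sdf2l1 (37.7 TPM) and Creld2 (27.8 TPM), which in WT had been above it, although Dnajb11 and Sdf2l1 overlapped here, as did Sdf2l1 and Creld2.

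Within groups the members varied together in part. Deviations of log2 CPM from the group mean were correlated over the 18 libraries for each of the 45 pairs of members. The median Pearson's r was 0.407, the highest was 0.883, and 39 pairs were above 0. The lowest was -0.763 for Pdia4 with Dnajb11, the genes whose knockout effect differed between replicate sets. The group means did not separate these sets. Between the sets the genes shifted in opposite directions in each genotype, so this r includes that difference. Of 8227 other genes whose log2 CPM averaged 3 or more in each experiment, the 8 most like the mean of the members were Dnajc3 (r = 0.768), Spcs3 (0.766), Enoph1 (0.731), Nudt21 (0.719), Ppid (0.687), Mia3 (0.679), Nifk (0.679) and Pdia3 (0.676). In FI3OE 5 of these 8 were lower (Dnajc3, Spcs3, Ppid, Mia3 and Pdia3), and Enoph1, Nudt21 and Nifk did not pass. All genes were read from the same libraries, so the correlations are given as a description.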

How the data were processed

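RNA-seq of ribosome-bound RNA and of SVF-derived adipocytes was rRNA depleted and made into libraries with Nextera XT. The authors trimmed reads with fastp and quantified them with Salmon 1.4.0 on GENCODE mouse transcripts (GRCm38). They deposited, for each of 118733 transcripts, Salmon's estimated counts, which are neither normalized nor whole, with TPM values and effective lengths. The deposited effective lengths, in bases, entered only the length offset among the alternatives, and the deposited TPM values only levels per length.

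Transcripts were assigned here to genes with GENCODE M21 (99.3% matched by identifier), and counts were summed per gene and rounded. CPM was taken over all reads of the library. The experiments were fitted separately in edgeR 4.0.16 (R 4.3.3) with filterByExpr, TMM scaling and the quasi-likelihood test, without covariates, and Benjamini-Hochberg adjustment over all genes. Calls were made at an adjusted p of 0.05 or less, and the study's added cutoff, a log2 fold change of 1, was an alternative. Alternatives were other scalings, filters and dispersions, DESeq2 1.42.0, a replicate block and leaving out each library. The script was tested on simulated data. Motifs were searched in RefSeq promoters in Python 3.11.15.

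The members and lists were chosen with earlier results of these data known. All members are named, with at most the 4 genes of lowest p per list and comparison that passed, Irf3, Derl3, Xbp1 and the 8 genes most like the members. Igkc, Mzb1, Igha, Pou2af1, Canx, Syvn1, Alg12, Hnrnpa3 and Spats2l were added after their values were seen.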

Additional observations from a re-analysis of the deposited data

Results flagged for a closer look

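Values of each member were compared within the 6 libraries of each TRAP group, which made 20 sets of values, and chance flags about 1 in 20. In 2 of them a single library was far from the others. Creld2 read 13.21 CPM in WT TRAP replicate 5, where the other 5 libraries lay between 9.37 and 10.7 CPM. Hyou1 read 159.0 CPM in FI3KO TRAP replicate 2, where the others lay between 183 and 197 CPM. Without that library the rise of Hyou1 in FI3KO passed the threshold, at a log2 fold change of 0.18.

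The knockout effect differed between TRAP replicates 3 to 6 and replicates 1 and 2 for Pdia4, by 0.74 on the log2 scale (interaction term in edgeR, adjusted p = 0.00139), and for Dnajb11, by -0.61 (-0.606, adjusted p = 0.0151). The sets were drawn from these same data, so these p-values describe that division and are no independent test. The labels do not say how the sets differ, and why the effects differ was not tested.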

How the results depend on the processing

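In FI3OE all 10 members kept their fall and their call under each of 16 alternatives (160 of 160 values), and 8 of them also passed the fold cutoff. The smallest and largest count with 1 library left out was 10. In FI3KO TRAP the count of 4 became 0 with the fold cutoff, 6 with replicates 3 to 6 only and 0 with replicates 1 and 2 only, where Hspa5 (-0.20), Pdia4 (0.04), Calr (-0.61) and Creld2 (0.58) lost their calls, the last 2 with larger changes than over all replicates. It ranged from 4 to 5 with single libraries left out, and Hyou1 passed without FI3KO replicate 2 (0.18) or WT replicate 5 (0.19). The interaction count of 2 ranged from 1 to 2, with 1 without FI3KO replicate 1, WT replicate 1 or WT replicate 2. With the replicate number as a block (replicate block) the counts were 10 and 4. Same-numbered libraries did not deviate together (correlations from -0.38 to 0.084), so the numbers are not taken as pairs.

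Signs turned for values that had not passed the test. In FI3KO TRAP these were Pdia6 with library size alone (-0.0018), Hsp90b1 without a filter on low counts (0.004), Sdf2l1 with replicates 3 to 6 only (-0.0068), and with replicates 1 and 2 only Hsp90b1 (0.0288), Dnajb11 (0.2555) and Manf (0.0623). With single libraries left out Hsp90b1 ranged from -0.0351 to 0.0246. For the interaction, Hsp90b1 (-0.1179 to 0.0557), Hyou1 (-0.2412 to 0.115) and Pdia6 (-0.082 to 0.1401) turned with single libraries left out. The cause was not tested.

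Calls over all genes moved from 5960 to 3800 with the length offset and to 1572 in the fit of all 18 libraries for FI3OE, from 5095 to 500 with TRAP replicates 1 and 2 only, and for the interaction from 3613 to 2107 and 2033 without WT replicate 1 or 2. The lowest members, such as Sdf2l1 in TRAP at 6.37 to 8.36 CPM, rest on the fewest reads.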
